A study of Mus musculus with 6 samples.

Results

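Semaphorins are a family of secreted and membrane-bound guidance signals, and plexins and neuropilins are the receptors that read them. The genes described here were chosen by symbol, as the vertebrate semaphorins of classes 3 to 7, the plexins A to D and both neuropilins. They make up 31 of the 19938 genes measured, 20 ligands and 11 receptors. The arrays measured RNA of the whole stomach of mouse embryos at E13.5, while the enteric nervous system and muscle layers form, 3 from wild type embryos and 3 from embryos of genotype Nkx3.2Cre;R26-SmoM2, called SmoM2 below. SmoM2 is a form of the hedgehog transducer Smoothened that is active without ligand. It was placed in the Rosa26 locus and turned on by Cre driven from Nkx3-2, a transcription factor gene active in stomach mesenchyme, so it acts in cells with a history of Nkx3-2 expression. The labels do not say whether the wild type embryos carried either allele on its own. Nor do they say what a replicate is (an embryo, a litter or a pool). The spread behind each p-value is that between these arrays, and how much of it is technical is not known. Signals of sex, given below, differed among the wild type arrays, so these were not all repeats of a single RNA sample. The question was how these guidance genes differ between stomachs with SmoM2 turned on in such cells and wild type stomachs.

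Semaphorins were first known for repelling growing axons. Class 3 semaphorins are secreted and mostly bind a neuropilin, which has no strong signal of its own and passes it on through a plexin of the A group or through Plxnd1. Classes 4 to 7 are tied to the membrane and mostly bind plexins directly, class 4 chiefly those of the B group and class 6 those of the A group. In the gut these signals are known for steering the neural crest cells and axons that build the enteric nervous system, for shaping vessels, where neuropilins also bind VEGF, and for contacts between epithelium and mesenchyme.

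Values are log2 signals after RMA, the background correction, quantile normalization and probe summary applied by the authors. A difference is the SmoM2 mean minus the wild type mean on the log2 scale, given with the standard error (SE) from limma, and adjusted p-values are Benjamini-Hochberg values from limma over all 19938 genes. A gene is said to have risen or fallen where the adjusted p was under 0.05. In this tissue-wide RNA, fewer cells of a type and less RNA per cell cannot be told apart. All 31 members were matched by gene identifier to RefSeq under the same symbol, 2 had a second probe set, and no filter on low values removed any of them. The array medians lay between 8.56 and 8.62. The 95th percentile of olfactory and vomeronasal receptor genes, taken as dim probe sets in a stomach, reached 8.25. Sema3e and Plxnb3 had means at or under that level, so their signals may be background.

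Of the 31 members 3 passed the test, 2 rising (Sema3a and Plxna2) and 1 falling (Sema5a), where 0.983% of all genes passed, 0.326% rising and 0.657% falling. Among the ligands 1 rose and 1 fell of 20, and among the receptors 1 rose and 0 fell of 11. Below the threshold most differences pointed down. The difference was negative in 24 of 31 members, 17 ligands and 7 receptors, against 49.2% of all genes. The median difference was -0.047 for ligands and -0.081 for receptors, against 0.0018 over all genes. Other scalings moved the ligands and all genes alike, with medians of -0.023 for ligands and 0.026 for all genes after repeated quantile normalization, and of -0.0076 and 0.041 when arrays were centred on their 75th percentile.

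The SmoM2 and wild type values did not overlap in 13 members, with SmoM2 higher in 3 and lower in 10. Over all genes this held for 15.7%, higher in 5.64% and lower in 10.1%. An unadjusted limma p under 0.05 was reached by 12 members (38.7%), against 10.5% of all genes. All 12 belonged to the 27 members above the median signal of all probe sets. Of the 11857 genes above that level 14.1% reached such a p, 20.9% had groups without overlap and 58.6% had a negative difference. For the 27 members these shares were 44.4%, 44.4% and 81.5%. The members were chosen as a family and with earlier results known, so these shares describe the list and were not tested.

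**Figure D1:**
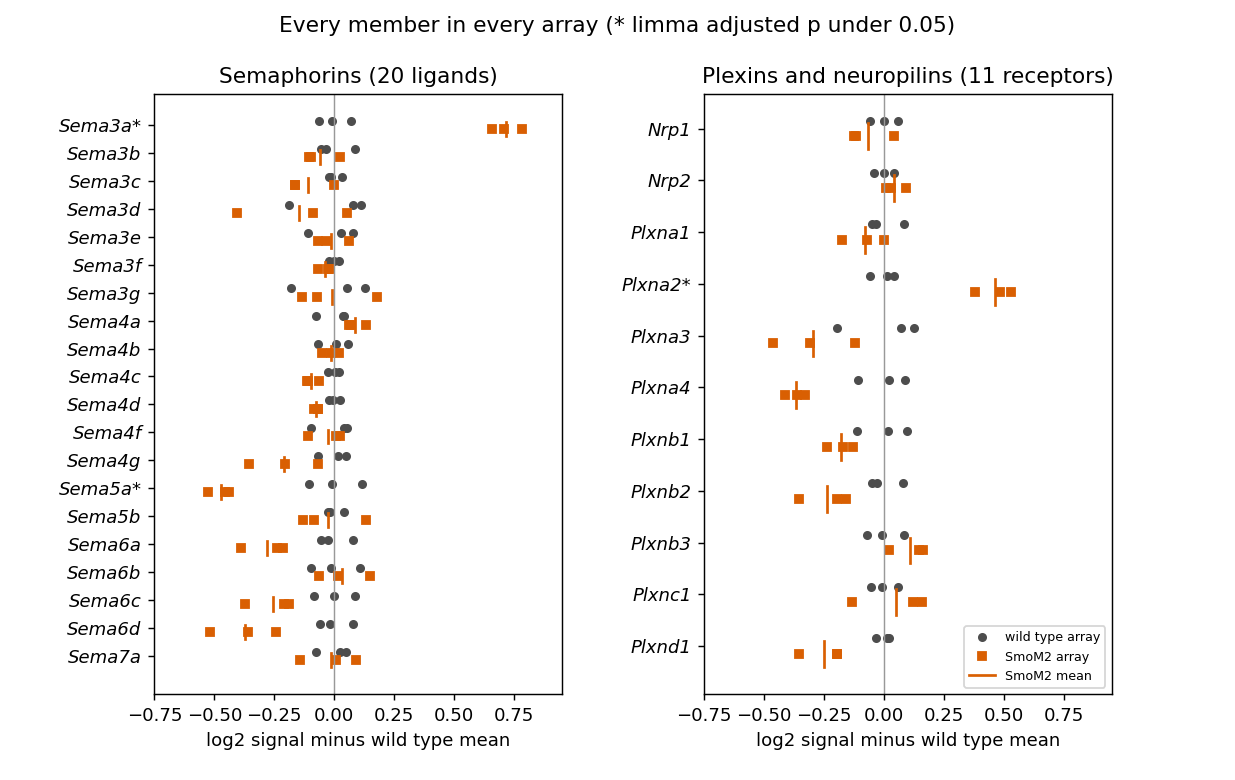
Log2 signal of each semaphorin (left) and each plexin or neuropilin (right) minus the gene's wild type mean, with 1 point per array (grey circles wild type, orange squares SmoM2, n = 3 each) and a bar at the SmoM2 mean. Sema3a and Plxna2 lie to the right of all wild type points, Sema5a lies to the left, and most other SmoM2 means lie slightly left of 0.

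The upstream sequences of the 3 members that changed are shown because SmoM2 acts through the GLI transcription factors, whose consensus site is TGGGTGGTC. Each is the stretch of 250 bases before the transcription start listed by RefSeq, on mouse build GRCm38.p6 and on the plus strand, and capitals mark a match to the consensus with at most 1 changed base on either strand.
Sema3a, chr5:13396534-13396783: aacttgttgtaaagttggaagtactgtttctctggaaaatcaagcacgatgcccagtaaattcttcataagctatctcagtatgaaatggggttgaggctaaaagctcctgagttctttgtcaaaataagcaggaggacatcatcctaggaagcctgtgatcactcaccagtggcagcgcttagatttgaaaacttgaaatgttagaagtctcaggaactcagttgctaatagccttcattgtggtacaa
Plxna2, chr1:194619579-194619828: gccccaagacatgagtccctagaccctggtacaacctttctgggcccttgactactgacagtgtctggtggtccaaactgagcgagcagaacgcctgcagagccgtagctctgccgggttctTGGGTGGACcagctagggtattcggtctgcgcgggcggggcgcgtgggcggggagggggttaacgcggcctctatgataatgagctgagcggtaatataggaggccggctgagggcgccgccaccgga
Sema5a, chr15:32244563-32244812: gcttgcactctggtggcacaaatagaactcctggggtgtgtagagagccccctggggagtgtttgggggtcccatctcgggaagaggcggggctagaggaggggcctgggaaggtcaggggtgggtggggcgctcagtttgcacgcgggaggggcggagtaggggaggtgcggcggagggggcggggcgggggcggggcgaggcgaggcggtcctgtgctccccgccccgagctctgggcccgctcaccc

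The Plxna2 window held the near match TGGGTGGAC, which carries the change T8A (consensus base first, positions counted from the 5′ end of the consensus), from 128 to 120 bases before the start. The Sema3a and Sema5a windows held none. The windows also differed in base composition, with 40.8% G and C for Sema3a, 62.8% for Plxna2 and 72% for Sema5a. RefSeq windows were matched for 26 of the 31 members, 37 windows in all because some genes have several starts. The exact consensus was in 0 of these 37 and in 0.225% of the windows of all genes. A near match was in 3 of the 37 member windows, those of Plxna2, Sema6b and Sema6c, and in 5.79% of the windows of all genes. Such a match is a string of letters, and these arrays measured no binding.

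Among the secreted class 3 ligands, Sema3a was the gene that changed. Sema3a, the classic repellent of sensory and sympathetic axons that binds Nrp1, was at 10.85, 10.94 and 10.80 in the wild type arrays and at 11.57, 11.52 and 11.65 in SmoM2. Every SmoM2 array was higher than every wild type array, and the gap between the groups was wider than the spread within either. The mean rose 1.64-fold, from 10.86 ± 0.07 to 11.58 ± 0.06 (SD, n = 3; log2 difference 0.72, SE 0.07, limma adjusted p = 0.00287). By size it was the 16th of the 65 genes that rose, while Plxna2 was the 49th. Among the 131 genes that fell Sema5a was the 105th by size. The call of Sema3a held without each array in turn, with adjusted p from 0.00639 to 0.0331, but not without variance moderation (adjusted p = 0.169), where 0 of all genes passed and 1873 had an unadjusted p under 0.05 in limma's linear model.

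The other 6 class 3 genes did not pass the test. Sema3c, which guides cardiac neural crest into the outflow tract, had group means of 10.65 and 10.54 (95% interval of the difference -0.27 to 0.05). Sema3f, a ligand of Nrp2, was at 10.64 and 10.60 (-0.18 to 0.11), and it was among the members with the smallest spread. Sema3b was at 8.95 and 8.90, Sema3g, a semaphorin of arterial endothelium, at 8.60 and 8.59, and Sema3e, the ligand of Plxnd1 in vessels, differed by -0.01 between the groups. Sema3d, a guide of neural crest and vessels, had the largest spread within groups of all members, at 10.10 ± 0.17 in wild type and 9.96 ± 0.23 in SmoM2 (SD, n = 3), with overlapping groups.

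Sema3a lies on chromosome 5 next to Sema3d, with 0 protein-coding genes between them in RefSeq, and Sema3e follows after 3 others. The change of Sema3a exceeded that of Sema3d by 0.86 and that of Sema3e by 0.73 on the log2 scale. It exceeded the change of Sema3c, on the same chromosome, by 0.83. In each of these 3 comparisons every SmoM2 array lay above every wild type array. Such differences are given for 8 pairs of genes as a description, because each pair sets a gene that passed the test against one that did not. The two-sided exact permutation test gave p = 0.1 in all 8, before and after adjustment over them, which is the smallest p that 3 against 3 arrays allow and so adds no support.

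Sema5a was the ligand that fell. It is a membrane semaphorin with thrombospondin repeats that can attract or repel axons and binds plexins of the A group. Its signal was 10.59, 10.81 and 10.69 in the wild type arrays and 10.17, 10.24 and 10.26 in SmoM2, and the groups did not overlap. The mean fell by 0.47 on the log2 scale, to a level 1.39-fold lower (10.70 ± 0.11 to 10.22 ± 0.05, SD, n = 3; SE 0.08, limma adjusted p = 0.0245). On leaving out 1 array, the adjusted p was above the threshold for wild type 1 and 2 and for SmoM2 1 and 3, at 0.0727, 0.0921, 0.0822 and 0.129, with the difference between -0.53 and -0.42. The call was also lost when arrays were centred on their 75th percentile (0.0690) and with a covariate for the signal of Y-linked genes (0.321). Sema5b, the other class 5 gene, was at 9.05 ± 0.04 and 9.02 ± 0.14 (95% interval of the difference -0.21 to 0.16). The change of Sema5a was lower than that of Sema5b by 0.45 on the log2 scale, in every SmoM2 array against every wild type array.

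The class 6 semaphorins are transmembrane ligands of the A plexins. Of the 4, 3 were lower in every SmoM2 array than in any wild type array, as were 10.1% of all genes, without passing the test. Sema6d, known for its part in heart morphogenesis, measured 10.76, 10.86 and 10.72 in the wild type arrays against 10.26, 10.54 and 10.42 in SmoM2. Its log2 difference was -0.37 (SE 0.09, limma adjusted p = 0.0953), and of the alternatives without a replicate block it passed in the fit with an intensity trend in the variance prior (0.0447). Sema6a, a ligand of Plxna2 and Plxna4 that steers migrating neurons, was at 11.21, 11.34 and 11.24 against 10.87, 11.05 and 11.02. SmoM2 1 had the lowest value for both of these genes. The difference of Sema6a was -0.28 (SE 0.08, adjusted p = 0.164). Sema6c was at 9.27, 9.19 and 9.10 against 8.82, 8.98 and 9.001 (difference -0.26, adjusted p = 0.241). Sema6b, a ligand of Plxna4, had overlapping groups, with means of 9.04 and 9.08. Its second probe set held identical values in all 6 arrays, so it adds no independent reading.

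None of the 6 class 4 genes passed, nor did Sema7a of class 7. Sema4c, a ligand of Plxnb2, measured 10.65, 10.61 and 10.63 in the wild type arrays against 10.52, 10.57 and 10.52 in SmoM2, lower in each SmoM2 array (difference -0.09, adjusted p = 0.695). Sema4d, the ligand of Plxnb1, was at 9.21, 9.18 and 9.16 against 9.11, 9.11 and 9.10 (difference -0.07, adjusted p = 0.781). The spread of Sema4d was the smallest of any member, and its second probe set went the other way, with a difference of 0.05 and overlapping groups, so its direction is not settled. Sema4a, best known from immune cells and retina, was at 8.46, 8.47 and 8.35 against 8.49, 8.50 and 8.56 (difference 0.09, adjusted p = 0.746). Sema4g had means of 9.25 and 9.04 with SmoM2 1 lowest at 8.89, an unadjusted p of 0.0368 and an adjusted p of 0.421 in limma. Sema4b, Sema4f and Sema7a, the last a ligand of integrins and Plxnc1, had differences between -0.03 and -0.01.

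Among the receptors Plxna2 rose, and the other 3 A plexins did not pass. Plxna2 carries signals of class 3 semaphorins with neuropilins and binds Sema6a directly. It was at 10.83, 10.86 and 10.76 in the wild type arrays and at 11.19, 11.30 and 11.34 in SmoM2, without overlap. The mean rose 1.38-fold, from 10.81 ± 0.05 to 11.28 ± 0.08 (SD, n = 3; log2 difference 0.47, SE 0.07, limma adjusted p = 0.0208). Leaving out wild type 1, wild type 2 or SmoM2 3 gave an adjusted p of 0.110, 0.0745 and 0.133, with the difference between 0.43 and 0.51 over all 6 such fits. With the Y-linked covariate the difference was 0.54 and the adjusted p 0.147.

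Plxna4, the A plexin best known from sensory and sympathetic neurons, lay on the other side. It measured 9.83, 9.90 and 9.70 in the wild type arrays against 9.48, 9.39 and 9.44 in SmoM2, so that every SmoM2 value was lower. Its difference of -0.37 (SE 0.07, limma adjusted p = 0.0601) missed the threshold. Of the alternatives without a replicate block, it passed without wild type 3 (0.0437), among genes above the median signal (0.0290) and with an intensity trend (0.0413). Plxna1 was at 10.85 and 10.77 (95% interval of the difference -0.25 to 0.09). The change of Plxna2 exceeded that of Plxna1 by 0.55, that of Plxna3 by 0.76 and that of Plxna4 by 0.83 on the log2 scale. In all 3 pairs the SmoM2 arrays lay above the wild type arrays.

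Plxna3, which is X-linked, measured 9.79, 9.85 and 9.53 in the wild type arrays against 9.26, 9.60 and 9.41 in SmoM2, with overlapping groups (difference -0.30, SE 0.11, adjusted p = 0.354). The wild type arrays did not all hold embryos of the same sex. Signals of sex were also not balanced between the groups, so sex and genotype cannot be fully told apart. Xist, the RNA of the inactive X, read 7.11 in wild type 1 against 11.94 and 11.68 in wild type 2 and 3. In SmoM2 1, 2 and 3 it read 11.93, 12.37 and 11.43. The mean of the Y-linked genes Eif2s3y, Kdm5d and Uty ran from 9.07 to 10.37 in wild type and from 8.71 to 9.27 in SmoM2. With that mean as a covariate the difference of Plxna3 was -0.11 (adjusted p = 1.00). Plxnb3, the other X-linked member, was at 8.18 and 8.29, near the dim level.

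Plexins of the B and D groups did not pass, and 3 of the 4 had lower means in SmoM2. Plxnb2, a receptor of class 4 semaphorins in epithelia and neural progenitors, measured 11.89, 12.00 and 11.87 in the wild type arrays against 11.56, 11.76 and 11.72 in SmoM2 (difference -0.24, SE 0.08, adjusted p = 0.285). Plxnd1, which relays Sema3e in endothelium, was at 11.16, 11.15 and 11.10 against 10.78, 10.94 and 10.94 (difference -0.25, SE 0.07, adjusted p = 0.197). Plxnb1, the receptor of Sema4d, was at 10.48, 10.55 and 10.35 against 10.22, 10.33 and 10.29 (difference -0.18, adjusted p = 0.448). Each SmoM2 value of these 3 genes was under each wild type value, as in 10.1% of all genes. None of the 3 passed the test, and SmoM2 1 was lowest in all 3. Plxnc1, the receptor of Sema7a, was at 9.23 ± 0.06 and 9.28 ± 0.16.

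Neither neuropilin passed the test, although Sema3a, a ligand of Nrp1, and Plxna2 did. Nrp1, which binds Sema3a and VEGF, measured 11.46, 11.40 and 11.34 in the wild type arrays against 11.28, 11.44 and 11.29 in SmoM2, with overlapping groups. The 95% interval of its difference ran from -0.23 to 0.10. Nrp2, which prefers Sema3f and Sema3c, was at 11.25, 11.29 and 11.20 against 11.34, 11.26 and 11.27, with an interval from -0.11 to 0.19.

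**Figure D2:**
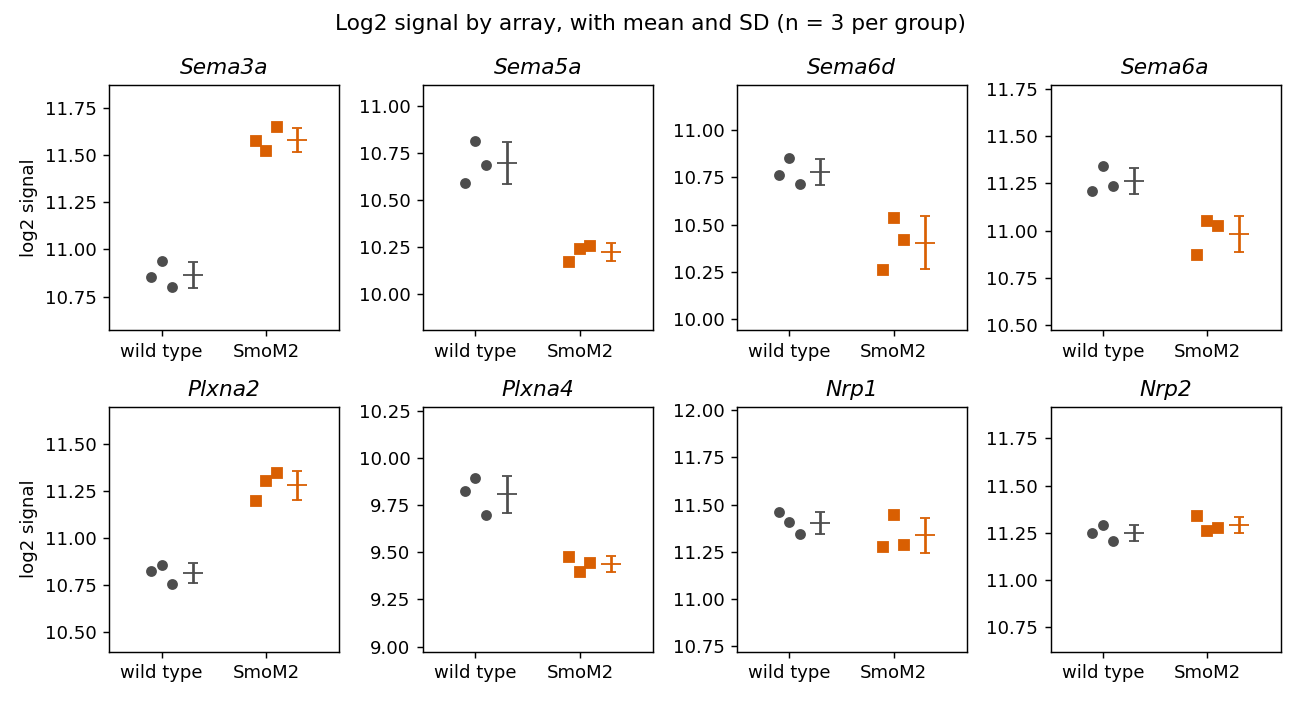
Log2 signal of 4 ligands and 4 receptors in each array (grey circles wild type, orange squares SmoM2), with the mean and SD of each group (n = 3) beside the points; every panel spans the same range of log2 signal. Sema3a and Plxna2 stand higher in SmoM2, Sema5a, Sema6d, Sema6a and Plxna4 stand lower, and Nrp1 and Nrp2 overlap.

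Genes that act with these receptors were read from a list of 41 coreceptors, VEGF ligands and effectors, of which 40 were measured under a symbol of their own. Of the 40, 1 rose, 0 fell and 39 did not pass, and the median difference was -0.04. The 1 that passed is 2.5% of the list, against 0.983% of all genes. The groups did not overlap in 13 of the 40 (32.5%), against 15.7% of all genes. These shares describe the list and were not tested. The riser was Crmp1, a collapsin response mediator protein of the family that relays Sema3a to microtubules. It rose 1.44-fold, from 10.61 ± 0.05 to 11.14 ± 0.09 (SD, n = 3; limma adjusted p = 0.0142), and every SmoM2 array was higher. By size it was the 36th of the 65 genes that rose. Its adjusted p on leaving out wild type 1, wild type 2 or SmoM2 3 was 0.0723, 0.0573 and 0.0950, and with the Y-linked covariate 0.0714. Its relatives had other values, with Dpysl2 at a difference of -0.05, Dpysl3 at 0.16, Dpysl4 at -0.11 and Dpysl5 at -0.25, and none of them passed. The change of Crmp1 exceeded that of Dpysl5 by 0.78.

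None of the 14 coreceptors passed. The VEGF receptors Kdr and Flt1, which pair with neuropilins in endothelium, had differences of -0.36 (adjusted p = 0.101) and -0.23 (adjusted p = 0.304), and both were lower in every SmoM2 array. Chl1, an adhesion molecule that joins Nrp1 in the response to Sema3a, had 0.24 (adjusted p = 0.223). The related L1cam and Nrcam had 0.02 and -0.07, Met, which can pair with B plexins, -0.17, and Erbb2, which also can, -0.14. The 4 VEGF ligands lay between -0.02 for Vegfc and 0.13 for Pgf. Among the 22 effectors, Crmp1 aside, Farp2, the Rac activator that A plexins release, had -0.24, Arhgef12, a guanine nucleotide exchange factor bound by B plexins, -0.22, and Mical3, of a family that oxidizes actin, -0.18, with adjusted p from 0.260 to 0.421.

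**Figure D3:**
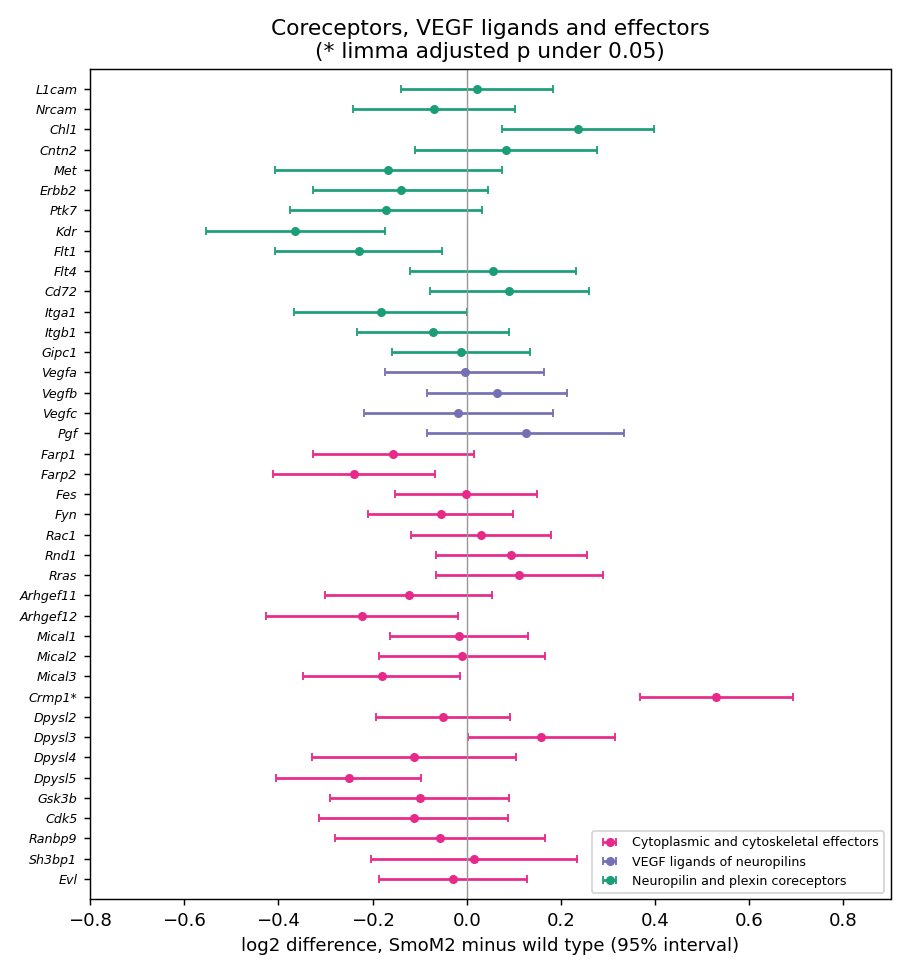
Log2 difference (SmoM2 minus wild type) of the 40 measured coreceptors, VEGF ligands and effectors with its 95% interval from limma (n = 3 arrays per group); colours mark the role. Crmp1 is the gene past the threshold, at 0.53, and Kdr has the lowest difference, at -0.36.

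Markers of several cell types also differed between the groups. Of 10 epithelial markers 6 fell and 0 rose, and their summed signal ran from 18233 to 20186 in wild type and from 12378 to 13868 in SmoM2 (linear scale). Of 8 smooth muscle markers 4 rose and 1 fell, with sums of 11480 to 12303 against 15271 to 18509, and of 9 mesenchymal markers 3 rose (Foxf1, Foxf2 and Foxl1) and 0 fell, with sums of 30698 to 32461 against 35682 to 37759. The median difference of the mesenchymal markers was 0.05, with Pdgfra, Barx1 and Col3a1 between 0.02 and 0.05 and Col1a1, lower in every SmoM2 array, at -0.33 (limma adjusted p = 0.0508). Among 8 neuronal markers 3 fell (Nefl, Nefm and Dcx), with sums of 8968 to 10373 against 6485 to 7926. Tubb3, Elavl4, Uchl1 and Ret, also of neurons, had differences between -0.09 and 0.05, and Stmn2, lower in every SmoM2 array, had -0.50 (limma adjusted p = 0.0901). Of 5 markers of glia and neural crest 1 fell (Fabp7), with sums of 4987 to 5767 against 3839 to 4419, while Sox10, S100b and Foxd3 had differences of 0.11, 0.09 and 0.16 and the list's median was 0.09. Of 6 mesothelial markers 3 fell, with sums of 7640 to 7941 against 5450 to 6154.

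Of 10 endothelial markers 0 passed and 9 had negative differences (median -0.12, sums of 17413 to 17642 against 15068 to 16586). The 6 leukocyte markers all had negative differences and 0 passed, with sums of 2695 to 2924 against 2049 to 2455, and 3 of them lay at the dim level. Those of lymphatic endothelium did not pass, with sums of 1581 to 1687 against 1470 to 1716. Of these, Prox1 was lower in every SmoM2 array, at -0.44 (limma adjusted p = 0.158), while Lyve1 and Flt4 had 0.10 and 0.06. In each of the 3 SmoM2 arrays the smooth muscle and mesenchymal sums were higher than in any wild type array. The epithelial, neuronal, glial, mesothelial, endothelial and leukocyte sums were lower than in any wild type array. A sum on the linear scale is weighted to the brightest genes of its list. The median differences of the mesenchymal and glial lists were 0.05 and 0.09, so their sums do not speak for most of their genes. The part of these markers in the members' values was not tested.

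**Figure D4:**
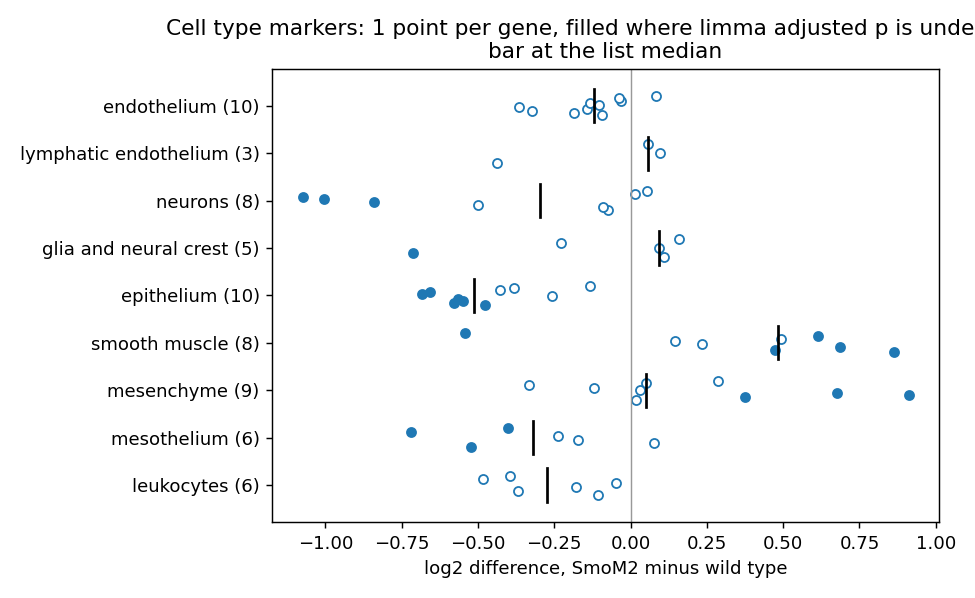
Log2 difference (SmoM2 minus wild type) of each measured cell type marker, 1 point per gene, filled where the limma adjusted p was under 0.05, with a bar at each list's median and the number of genes in parentheses. Epithelial markers lie at or below -0.13, and 7 of 8 smooth muscle markers lie above 0, Des being the exception.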

How the data were processed

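The authors deposited log2 signals of 35556 probe sets for 6 Affymetrix arrays, made with RMA and affy per the submitters' processing notes (versions not given in the sources used here). The method draws arrays towards 1 distribution and compresses small signals, and precision is limited by how few arrays there are. Probe sets were named by the platform's annotation (21789 probe sets with 1 symbol, 1621 with several). A gene's value is that of its single-symbol probe set brightest on average over the 6 arrays. Groups came from the sample titles. Group means were compared over 19938 genes by lmFit and eBayes of limma 3.58.1 (R 4.3.3), checked on simulated data. Replicate numbers were not treated as pairs, because the labels state no pairing. Same-numbered arrays correlated at -0.10, 0.52 and 0.06 in their deviations from the group means. These values do not settle whether arrays of the same number shared a batch, which was not tested, so a replicate block was fitted as an alternative.

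Values are given per array for members past the threshold or without overlap, for the neuropilins, and for the 3 ligands and 3 receptors with the largest difference. The members, lists and pairs were chosen with earlier results of these data known. Alternatives covered a replicate block, leaving out each array, the choice of probe set, a filter on dim genes, scaling, the variance model and a Y-linked covariate. Upstream sequences are RefSeq's, searched for TGGGTGGTC on both strands.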

Additional observations from a re-analysis of the deposited data

How the results depend on the processing

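Over 17 alternatives the sign of each of the 16 members given per array was kept, except that Sema4d turned to 0.049 with its most variable probe set. Sema4a was not above the median signal and had no value in that filter. Sema3a passed in 16 alternatives, Plxna2 in 12 and Sema5a in 10. Leaving out 1 array gave 1 to 2 changed ligands, 0 to 2 receptors and 0 to 1 partners, against 2, 1 and 1 with all arrays. In these fits the differences ran from 0.68 to 0.75 for Sema3a, from 0.43 to 0.51 for Plxna2 and from -0.53 to -0.42 for Sema5a, and the medians from -0.080 to -0.025 for ligands and from -0.122 to -0.037 for receptors. Without variance moderation 0 ligands, 0 receptors and 0 partners passed in limma's linear model (11 of the 31 members had an unadjusted p under 0.05), with Sema3a at 0.72, Plxna2 at 0.47 and Sema5a at -0.47 and adjusted p of 0.169, 0.213 and 0.268. With the Y-linked covariate 1 ligand, 0 receptors and 0 partners passed, with Plxna2 at 0.54, Sema5a at -0.49 and medians of -0.079 for ligands and -0.019 for receptors. That fit called 22 genes in all, against 196. Centring on the 75th percentile left 1 ligand, with Sema5a at -0.43.

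The replicate block gave 3 ligands, 2 receptors and 2 partners, adding Sema6d and Plxna4 (adjusted p 0.0120 and 0.0142), and 698 genes in all. An intensity trend gave 3 ligands, 2 receptors and 2 partners, and the filter on dim genes 2 receptors. The ligand median was -0.031 with the mean or the most variable probe set, -0.073 among genes above the median signal, -0.023 after repeated quantile normalization, and -0.029 and -0.0076 with centring on the median or the 75th percentile. These 3 scalings moved the median of all genes likewise, from 0.0018 to 0.026, 0.020 and 0.041, and centring on the 75th percentile gave a receptor median of -0.042. The cause of the other shifts was not tested.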

Other observations

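For the 7 members under the median mean signal of all genes, the median deviation from the gene's mean was 0.03, -0.09 and 0.06 in wild type 1, 2 and 3 and 0.07, -0.07 and -0.03 in SmoM2 1, 2 and 3. The medians of olfactory and vomeronasal receptor genes were 6.28, 6.18 and 6.32 and 6.40, 6.16 and 6.24 in the same arrays. Wild type 2 and SmoM2 2 were lowest within their groups by both measures, and SmoM2 1 was the highest array. Single members departed from this order, since Sema4a was lowest in wild type 3 and SmoM2 1 and Plxnb3 was lower in SmoM2 3 than in SmoM2 2.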
